A study of Mus musculus with 9 samples.

Results

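The p38 MAP kinase route was followed here through 10 genes. They encode the activating kinases Map2k6, Map2k3 and Map2k4, the p38 kinases Mapk14, Mapk11, Mapk12 and Mapk13, the target kinases Mapkapk2 and Mapkapk3, and the phosphatase Dusp1. They were taken by gene symbol from a table of 18272 genes, and all 10 were among the 13960 genes with enough counts to be tested. The genes were chosen by their place in the route, but Map2k6 was selected on its counts in T1D against NGT in these same libraries, so its values are given as a description with no test, also against Lira, since each comparison shares mice with that one.

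RNA-seq libraries were made from whole tibia of 9 female C57BL/6J mice, 1 library per mouse and 3 mice per group. NGT mice (normal glucose tolerance) received citrate vehicle and, per the sample labels, saline. T1D mice received 1 injection of streptozotocin (STZ), which destroys pancreatic beta cells, and then saline. Lira mice received STZ and then daily liraglutide, a GLP-1 receptor agonist, at a dose of 0.6 mg/kg/day. Mice were 10 to 11 weeks old when purchased and treatment lasted 8 weeks per the study's methods, whereas the label of Lira mouse 3 gives 9 weeks. STZ diabetes is a chemical model, in which beta cells are lost without the immune attack of human type 1 diabetes.

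Depth was alike, with 13086373 to 16528394 counts per library. The bones had been cleaned of muscle before extraction, but 19 skeletal muscle markers took 14.5% to 26.9% of all counts. Osteoblast markers summed to 209.8 to 5836 CPM (counts scaled by TMM-adjusted library totals) and osteocyte markers to 7.03 to 39.2 CPM. The defining osteocyte markers Sost, Mepe and Fgf23 were each at 0 in at least 1 library. The summed CPM of all 16 marker lists examined overlapped between the groups in every comparison. NGT mouse 1, T1D mouse 1 and Lira mouse 3 stood apart with the lowest muscle share. In such bulk tissue, fewer cells of a type and less RNA per cell cannot be told apart.

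p38 kinases are switched on by dual phosphorylation in response to cytokines, stress and, in muscle, contraction. Map2k3 and Map2k6 are the dedicated activators, Map2k4 serves both the p38 and the JNK kinases, and active p38 phosphorylates Mapkapk2 and Mapkapk3 as well as transcription factors such as the Mef2 family. Dusp1 removes the activating phosphates. In bone, p38 is known to act downstream of RANK in osteoclast precursors and in osteoblast differentiation. Transcript levels do not measure the phosphorylation on which this route runs.

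Of the 10 genes, Map2k6 and Mapkapk3 were at lower levels in each of the 3 T1D mice than in any NGT mouse, as were 5.08% of all tested genes, and their promoters are shown for that reason. Both sequences are the 250 bases upstream of the most 5′ start listed by RefSeq (mouse build GRCm38.p6), printed 5′ to 3′ on the strand of the gene. Capitals mark the E-box CANNTG, the motif of basic helix-loop-helix factors such as the myogenic ones.
Map2k6, chr11:110398852-110399101, plus strand: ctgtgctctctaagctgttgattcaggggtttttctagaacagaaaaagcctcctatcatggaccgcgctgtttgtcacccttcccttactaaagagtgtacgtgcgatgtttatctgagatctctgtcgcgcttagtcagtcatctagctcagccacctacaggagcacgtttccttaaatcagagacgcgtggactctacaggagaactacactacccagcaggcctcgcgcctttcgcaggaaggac
Mapkapk3, chr9:107289878-107290127, minus strand: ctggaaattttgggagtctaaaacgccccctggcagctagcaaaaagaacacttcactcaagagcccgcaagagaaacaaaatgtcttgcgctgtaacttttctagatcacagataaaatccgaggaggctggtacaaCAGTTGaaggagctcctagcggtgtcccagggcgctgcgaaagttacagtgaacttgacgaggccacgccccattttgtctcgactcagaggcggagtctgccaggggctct
The Map2k6 window held 0 E-boxes and the Mapkapk3 window held 1, against a share of 66.2% of 32851 mouse promoter windows of the same length with at least 1 match on either strand. The other listed starts were 2 for Map2k6 and 1 for Mapkapk3, and each had 1 E-box. GC content was 50.4% for Map2k6 and 51.6% for Mapkapk3, close to the median of 52.4% over all windows. Neither window held the cyclic AMP response element TGACGTCA, found in 1.55% of all windows, or the FOXO-type motif TGTTTAC, found in 3.17%, on either strand. A match is a run of letters and not a measured binding site.

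Map2k6 had the clearest separation of T1D from NGT among the activators. Its level was 18.3, 29.2 and 32.0 CPM in NGT mice 1 to 3, 12.3, 13.8 and 13.4 CPM in T1D mice, and 20.3, 24.3 and 15.4 CPM in Lira mice. The T1D mice lay close together and below every mouse of the other groups, while NGT and Lira overlapped. The group means were 26.5 ± 7.24 CPM in NGT, 13.2 ± 0.792 CPM in T1D and 20.0 ± 4.43 CPM in Lira (SD, n = 3 each). The fitted T1D level was 0.498 of that in NGT, a log2 fold change of -1.01 (SE 0.25). These levels rest on 201 to 404 counts per library.

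Between Lira and T1D, Map2k6 was higher in Lira by 0.60 on the log2 scale (SE 0.25), a fold of 1.52. The 2 groups did not overlap, as was the case with Lira higher for 3.74% of all genes. This difference rests on the T1D values for which the gene was picked. Both comparisons share the T1D mice, and 1.23% of all genes were, like Map2k6, lower in T1D than NGT and higher in Lira than T1D without overlap. Against NGT, Map2k6 in Lira differed by -0.40 (SE 0.25). In FPKM, in which the authors corrected for gene length and library size, Map2k6 lay at 8.59 to 11.48 in NGT, 4.98 to 6.52 in T1D and 6.94 to 9.13 in Lira, so T1D was again below every other mouse.

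**Figure D1:**
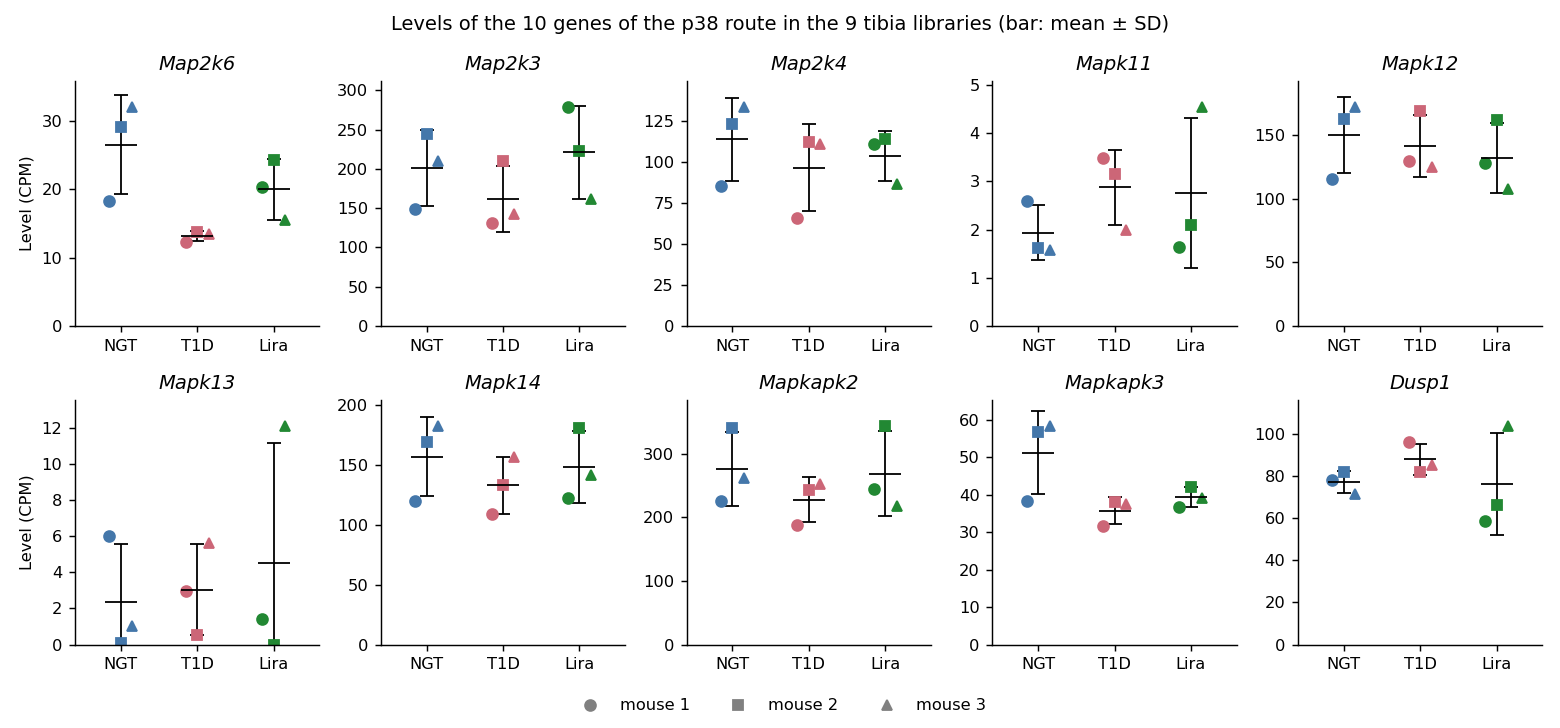
Level of each of the 10 genes in TMM-scaled CPM (vertical axes from 0, 1 panel per gene) in the 3 NGT, 3 T1D and 3 Lira mice, 1 symbol per mouse, with group means and SD (lower bars of Mapk13 end at 0). Map2k6 at 12.3 to 13.8 CPM in T1D lies below all NGT and Lira mice, whereas the groups overlap for most other genes.

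Map2k3, the other dedicated activator, did not separate the groups. It was at 149, 244 and 210 CPM in NGT, 132, 210 and 143 CPM in T1D, and 278, 223 and 161 CPM in Lira. The groups overlapped in every comparison, and the highest and the lowest mouse were Lira mouse 1 and T1D mouse 1. The log2 fold change was -0.32 (SE 0.28) for T1D against NGT and 0.45 (SE 0.29) for Lira against T1D.

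Map2k4, which also activates JNK, was at 85.5, 123 and 133 CPM in NGT, 65.8, 112 and 111 CPM in T1D, and 111, 114 and 86.4 CPM in Lira. All groups overlapped, and the lowest values were in NGT mouse 1, T1D mouse 1 and Lira mouse 3, the libraries with the least muscle transcript. Its log2 fold change was -0.24 (SE 0.26) in T1D against NGT and 0.11 in Lira against T1D.

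Per gene length, Map2k6 was the minor of the dedicated activators. The ratio of Map2k6 to Map2k3 FPKM was 0.104, 0.105 and 0.134 in NGT, 0.0863, 0.0600 and 0.0834 in T1D, and 0.0659, 0.0977 and 0.0832 in Lira. Every NGT mouse was above every T1D and every Lira mouse, and T1D and Lira overlapped. Since Map2k6 was picked for its low T1D level, the T1D ratios are a description too.

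**Figure D2:**
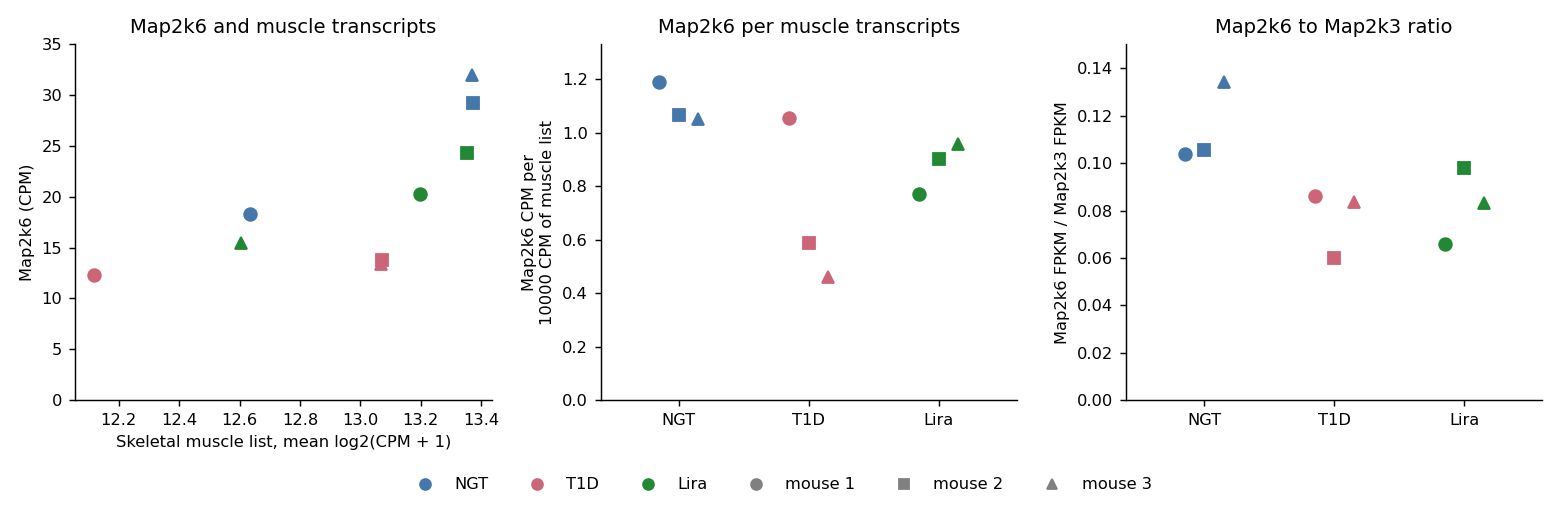
Left, Map2k6 CPM against the mean log2(CPM + 1) of 19 skeletal muscle genes in the 9 libraries. Middle, Map2k6 CPM per 10000 CPM of the muscle list by group. Right, the ratio of Map2k6 to Map2k3 FPKM by group. Map2k6 was higher in libraries with more muscle transcript, T1D mouse 1 lies among the NGT mice once divided by it, and NGT has the highest ratios at 0.104 to 0.134.

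The p38 kinases themselves were present mainly as Mapk12 (p38 gamma, the form best known from skeletal muscle) and Mapk14 (p38 alpha, the widely expressed form). Of the summed FPKM of the 4 kinases, Mapk12 made up 56.5% to 72.4% and Mapk14 26.5% to 35.8% over the 9 libraries. Mapk11 (p38 beta) made up 0.388% to 1.52% and Mapk13 (p38 delta) 0% to 7.21%. Mapk12 was the leading form in all 9 libraries, and its share was 64.3%, 66.2% and 66.3% in NGT, 70.7%, 72.4% and 60.4% in T1D, and 67.4%, 65.0% and 56.5% in Lira. These shares overlapped between the groups.

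**Figure D3:**
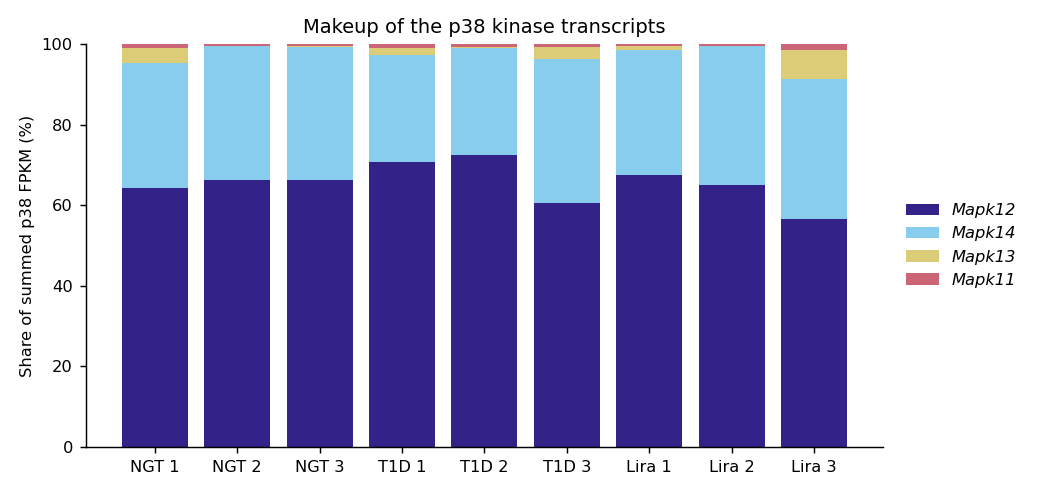
Share of each p38 kinase in the summed FPKM of Mapk11, Mapk12, Mapk13 and Mapk14 (percent), 1 stacked bar per mouse, grouped as NGT, T1D and Lira. Mapk12 takes 56.5% to 72.4% of every bar, and Mapk13 is largest in Lira mouse 3 at 7.21%.

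Mapk14 was at 119, 169 and 182 CPM in NGT, 109, 133 and 157 CPM in T1D, and 122, 181 and 141 CPM in Lira. Mapk12 was at 116, 163 and 172 CPM in NGT, 130, 169 and 125 CPM in T1D, and 128, 162 and 108 CPM in Lira. Both genes overlapped between the groups in all comparisons. In T1D against NGT the log2 fold change was -0.24 (SE 0.23) for Mapk14 and -0.09 (SE 0.23) for Mapk12.

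Mapk11 was scarce, with 2.6, 1.62 and 1.58 CPM in NGT, 3.48, 3.14 and 2.0 CPM in T1D, and 1.64, 2.10 and 4.53 CPM in Lira. The highest value was that of Lira mouse 3 and the groups overlapped. Its log2 fold change was 0.57 (SE 0.46) in T1D against NGT.

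Mapk13 varied more between mice of a group than between groups. It was at 6.03, 0.0773 and 1.03 CPM in NGT, 2.99, 0.524 and 5.6 CPM in T1D, and 1.43, 0 and 12.1 CPM in Lira. The value of 0 in Lira mouse 2 allows up to 3 counts, which in these libraries is 0.163 to 0.237 CPM. The summed CPM of 10 neutrophil markers differed between mice in much the same order, at 2356, 9.49 and 446.9 in NGT, 1272, 58.5 and 1468 in T1D, and 749.5, 116.4 and 5125 in Lira. The 4 libraries with the most neutrophil transcript were the 4 with the most Mapk13. The same 4 also had the highest sums of the osteoclast, macrophage, and T and NK cell lists. The part of any of these cells in the Mapk13 level was not tested. The log2 fold change of 0.34 in T1D against NGT carried an SE of 1.65.

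Of the target kinases, Mapkapk3 separated T1D from NGT and Mapkapk2 did not. Mapkapk3 was at 38.4, 56.8 and 58.3 CPM in NGT, 31.6, 38.1 and 37.4 CPM in T1D, and 36.8, 42.1 and 39.0 CPM in Lira. Every T1D mouse was below every NGT mouse, although by little for NGT mouse 1, and Lira overlapped both. In FPKM the gap was wider, with 18.09 to 20.12 in NGT, 13.03 to 15.49 in T1D and 12.95 to 16.97 in Lira, so Lira also lay below NGT on this scale.

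The log2 fold change of Mapkapk3 in T1D against NGT was -0.52 (SE 0.18, 95% interval -0.94 to -0.10), a fold of 0.698. The unadjusted p was 0.0210 and the Benjamini-Hochberg adjusted p 0.977 in edgeR's quasi-likelihood test, and the exact two-sided permutation p was 0.1, the smallest that 3 against 3 mice allow. Without NGT mouse 2, NGT mouse 3 or T1D mouse 1 the unadjusted edgeR p was 0.0617 to 0.0799. Lira differed from T1D by 0.14 (SE 0.18) and from NGT by -0.38 (SE 0.18), with edgeR unadjusted p of 0.473 and 0.0699.

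Mapkapk2, the kinase through which p38 stabilizes cytokine mRNAs, was at 227, 341 and 262 CPM in NGT, 188, 243 and 253 CPM in T1D, and 244, 344 and 218 CPM in Lira. The groups overlapped, and the log2 fold change was -0.28 (SE 0.24) in T1D against NGT and 0.24 in Lira against T1D.

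Dusp1, the phosphatase that switches p38 off and that is itself induced early by stress and glucocorticoids, was at 78.4, 81.8 and 71.4 CPM in NGT, 96.4, 82.2 and 85.6 CPM in T1D, and 58.7, 66.5 and 104 CPM in Lira. T1D lay above NGT without overlap, by a margin of 82.2 against 81.8 CPM for the nearest mice, and Lira spanned both groups. The log2 fold change was 0.19 (SE 0.22) with an edgeR unadjusted p of 0.405. In FPKM the groups overlapped, at 32.46 to 48.66 in NGT and 39.95 to 61.81 in T1D. The summed CPM of 11 immediate-early genes, which respond within minutes to handling and stress, was 262.2 to 392.8 in NGT, 353.7 to 398.2 in T1D and 302.7 to 500.2 in Lira. Of these genes 10 of 11 had a higher level in T1D than NGT, beside 47.9% of all genes with a log2 fold change below 0. At an unadjusted edgeR p under 0.05, 3 were higher, as were 2.36% of all genes, and the median log2 fold change of the 11 was 0.50. Their mean log2(CPM + 1) was 3.78 to 4.38 in T1D and 3.24 to 3.66 in NGT without overlap. Their part in the Dusp1 level was not tested.

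Across the 10 genes, levels per length fell into a stable order. Mapk12, Map2k3 and Mapkapk2 came first at a mean over the 9 libraries of 90.2 ± 14.4, 88.4 ± 16.5 and 88.3 ± 11.6 FPKM (SD), and these did not differ beyond their spread. Mapk14 and Dusp1 followed at 43.5 ± 4.77 and 42.4 ± 12.2 FPKM and did not differ beyond their spread either. Below them came Map2k4 at 27.7 ± 2.66 FPKM, whose range met that of Dusp1, Mapkapk3 at 16.2 ± 2.72 and Map2k6 at 7.98 ± 2.18 FPKM. Mapk13 at 2.61 ± 3.27 FPKM and Mapk11 at 1.08 ± 0.555 FPKM closed the order, with overlapping spreads. The range of Mapk13, up to 9.86 FPKM, also met that of Map2k6, 4.98 to 11.48 FPKM. In Lira mouse 3, Mapk13 was above Map2k6. In each library 8 to 10 of the 10 genes were within 1 place of this order.

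No gene of the whole table met the thresholds for a differentially expressed gene (adjusted p under 0.05 and fold change over 2) in edgeR, a share of 0% of 13960 genes in each comparison. The lowest adjusted p was 0.977 for T1D against NGT, 0.978 for Lira against T1D and 0.999 for Lira against NGT. At an unadjusted p under 0.05 there were 552, 465 and 109 genes in these comparisons. DESeq2 called 0, 1 and 0 genes, with 697, 620 and 155 at an unadjusted p under 0.05. Without the fold threshold it called 1, 1 and 0 genes (lowest adjusted p 0.00592, 0.0367 and 1), none of them among the 10. limma on log2(CPM + 1) called 0 in each.

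Leaving out Map2k6, 1 of the other 9 genes had an unadjusted edgeR p under 0.05 in T1D against NGT, the lower Mapkapk3, where 3.95% of all genes did and 1.6% with a lower level. In Lira against T1D and Lira against NGT, 0 of the 9 did in edgeR, where 3.33% and 0.781% of all genes did. T1D and NGT did not overlap for the lower Mapkapk3 and the higher Dusp1, 2 of 9, where 8.6% of all genes did not overlap. The other groups overlapped for all 9 genes, where 7.13% of all genes did not overlap in Lira against T1D and 4.27% in Lira against NGT. The median log2 fold change of the 9 genes was -0.24 in T1D against NGT, 0.14 in Lira against T1D and -0.04 in Lira against NGT, beside 0.02, 0.04 and 0.04 over all genes. Adjusted p-values of the 9 in edgeR were 0.977 to 0.999.

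**Figure D4:**
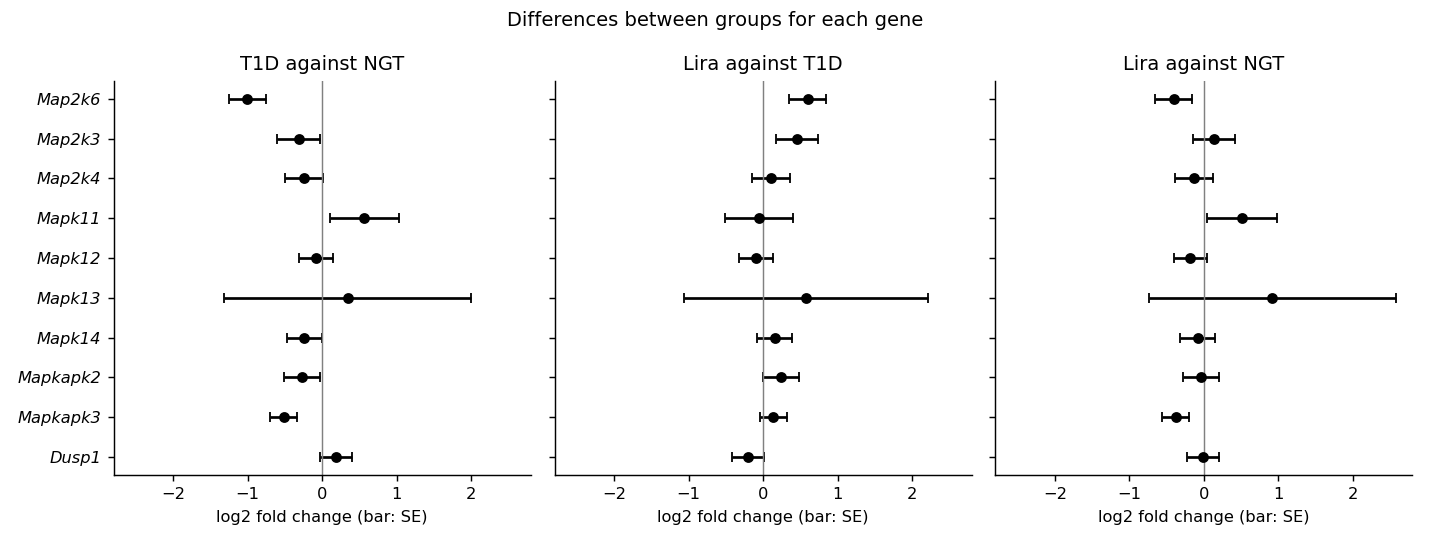
Log2 fold change of each of the 10 genes (horizontal axis, bar: SE) in T1D against NGT, Lira against T1D and Lira against NGT. Map2k6 at -1.01 in the first comparison is a description, since it was chosen there, and Mapk13 has the widest bars, with an SE of 1.65.

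Deviations from the group mean ran together in same-numbered T1D and NGT mice, so these were also set side by side. The labels number the mice but state no pairing, so the pairs were chosen from these same data. Mouse 1 had the lowest muscle share in both groups, at 18.5% in NGT and 14.5% in T1D. On the log2(CPM + 1) scale, T1D minus NGT was -0.54, -1.03 and -1.20 for Map2k6 in mice 1, 2 and 3. For Mapkapk3 it was -0.27, -0.56 and -0.63. Map2k3, Map2k4, Mapk14 and Mapkapk2 were also lower in T1D in 3 of 3 pairs, with differences from -0.55 to -0.05, as were 19% of all genes. Mapk11 and Dusp1 were higher in 3 of 3 pairs, as were 19.2% of all genes, and Mapk12 and Mapk13 went both ways. In edgeR with the pair as a block and only the NGT and T1D mice, 1 of the 9 genes without Map2k6 had an unadjusted p under 0.05, where 14.2% of 13625 genes did, and that was Mapkapk3 at -0.50 (SE 0.14, unadjusted p 0.0126, adjusted p 0.255).

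All 10 genes had an r of at least 0.66 in size to the level of muscle transcript, as did 41.8% of all 13960 genes. Across the 9 libraries, the log2(CPM + 1) of Map2k6 and the mean log2(CPM + 1) of the 19 muscle genes had a Pearson's r of 0.727 and a Spearman's rho of 0.85, given with no test because they include the T1D and NGT values for which Map2k6 was picked. Without T1D mouse 1 and Lira mouse 3, the libraries farthest from the median muscle level, r was 0.619 and rho 0.857. Within the 6 libraries richest in muscle transcript, 2 of each group, r was 0.976 and rho 0.943, and T1D mice 2 and 3 were the lowest in both measures. The order differed by summed CPM of the muscle list, with T1D mouse 3 at 290880 CPM. That was above NGT mouse 2 (273290) and Lira mice 1 and 2 (263640 and 269970). The 3 libraries of low muscle share are 1 of each group and too few for a value of their own.

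Map2k4 followed the muscle list most closely of the 10, at r = 0.980 and rho = 0.917 (exact permutation p adjusted over 10 relations 0.000799 and 0.0101), and at r = 0.930 without the same libraries (adjusted 0.0258). Mapkapk2 (r = 0.851, rho = 0.90), Map2k3 (r = 0.793, rho = 0.817) and Mapk14 (r = 0.785, rho = 0.75) also had higher levels with more muscle transcript, and Mapk11 lower levels (r = -0.777, rho = -0.85). Each r had an adjusted exact permutation p of 0.0100 to 0.0254. Without the same libraries these r were 0.721, 0.689, 0.765 and -0.64 and the adjusted exact permutation p 0.103 to 0.155, so these relations were no longer past 0.05 over 7 libraries, although r moved little for Mapk14. Mapkapk3, Mapk12, Dusp1 and Mapk13 had r of 0.710, 0.664, -0.675 and -0.668 at an adjusted exact permutation p of 0.0533, and rho of 0.667, 0.683, -0.667 and -0.783, of which that of Mapk13 had an adjusted exact permutation p of 0.0287. Over the 7 libraries their r were 0.615, 0.738, -0.318 and -0.784, so that of Dusp1 rests on the libraries left out.

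The summed muscle list ranged over 153900 to 304800 CPM in NGT, 116500 to 290900 CPM in T1D and 161400 to 270000 CPM in Lira. In T1D against NGT, 17 of its 19 genes had a log2 fold change below 0, as did 47.9% of all genes, and 1 had an unadjusted p under 0.05 in edgeR with a lower level, as did 1.6% of all genes. Per 10000 CPM of the muscle list, a measure chosen after seeing the data, Map2k6 was 1.19, 1.07 and 1.05 CPM in NGT, 1.05, 0.589 and 0.461 CPM in T1D, and 0.769, 0.90 and 0.957 CPM in Lira. T1D mouse 1 then lay within the NGT range, T1D mice 2 and 3 lay below all other mice, and Lira lay below NGT. The mean log2 difference was -0.74 for T1D against NGT and 0.40 for Lira against T1D. With the muscle level as a covariate in edgeR, the corresponding values were -0.76 and 0.41. For the other genes in T1D against NGT, the covariate gave -0.06 for Map2k3, 0.02 for Map2k4, -0.05 for Mapk14 and -0.08 for Mapkapk2. It gave -0.37 for Mapkapk3, 0.25 for Mapk11, 0.10 for Mapk12, 0.42 for Mapk13 and 0.05 for Dusp1.

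Macrophage markers were highest in T1D mouse 1 and higher in T1D in 3 of 3 same-numbered pairs. The 9 macrophage markers summed to 49.5 to 142.8 CPM in NGT, 100.3 to 980.8 CPM in T1D and 102.3 to 145.8 CPM in Lira. The highest sum was that of T1D mouse 1, and T1D mice 2 and 3 at 100.3 and 123.2 CPM lay within the NGT range but above their same-numbered NGT mice, at 49.5 and 62.0 CPM. Of these markers 5 of 9 had an unadjusted edgeR p under 0.05 with higher levels in T1D than NGT, as did 2.36% of all genes. The 10 osteoclast markers summed to 88.6 to 201 CPM in NGT, 157.5 to 424.1 CPM in T1D and 114.6 to 328.5 CPM in Lira, with Dcstamp at 0 in at least 1 library. They were also higher in T1D in 3 of 3 pairs, whereas the muscle sum was lower in 3 of 3. Of the 9 osteoclast markers tested, 7 had a higher level in T1D than NGT, beside 47.9% of all genes with a log2 fold change below 0. At an unadjusted edgeR p under 0.05, 2 were higher, as were 2.36% of all genes, and the median log2 fold change was 1.85. In Lira against T1D, 8 of the 9 osteoclast markers had a lower level, as did 44.7% of all genes. All 9 osteoblast and all 6 adipocyte markers were likewise higher in T1D than NGT and lower in Lira than T1D. All 9 erythroid markers were higher in both of these comparisons. The part of these cells in the levels of the 10 genes was not tested.

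The wider route was covered by 84 genes in 5 lists, of which 79 had enough counts to be tested. In T1D against NGT, 3 of the 79 (3.8%) had an unadjusted edgeR p under 0.05, beside 3.95% of all genes, and all 3 were lower, beside 1.6%. With same-numbered mice as a block and only these groups, 11 of 78 (14.1%) did, 8 of them lower, beside 14.2% of all genes. In Lira against T1D 3 of the 79 (3.8%) did, beside 3.33% of all genes, 2 of them higher and 1 lower, beside 1.55% and 1.78%. In Lira against NGT 0 of the 79 did in edgeR, beside 0.781% of all genes. In edgeR without the block, all 79 had an adjusted p of 0.977 or more. T1D lay below NGT without overlap for 9 of the 79 (11.4%), beside 5.08% of all genes, and above for 1 (1.27%), beside 3.52%. Lira lay above T1D for 4 (5.06%), beside 3.74% of all genes, and below for 1 (1.27%), beside 3.4%. The median log2 fold change of the 79 was -0.02 in T1D against NGT, 0.10 in Lira against T1D and 0.06 in Lira against NGT.

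**Figure D5:**
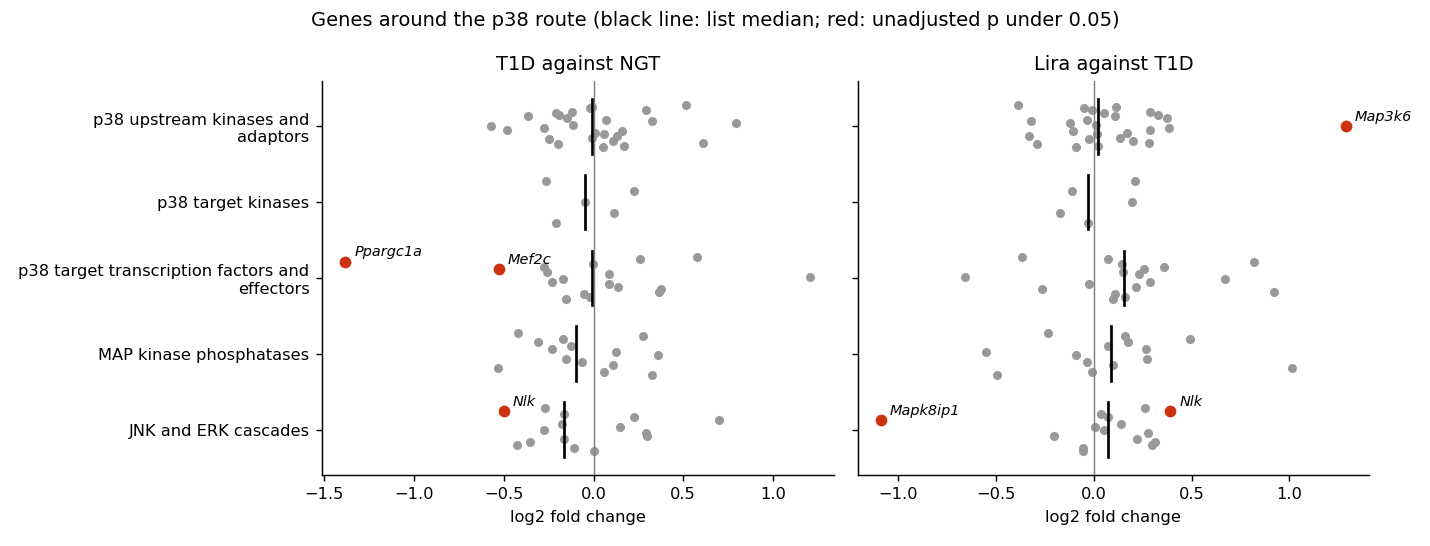
Log2 fold changes of the 79 tested genes of the 5 lists around the p38 route in T1D against NGT and Lira against T1D, 1 point per gene, with the median of each list and, in red, the genes with an unadjusted p under 0.05. The medians lie between -0.17 and 0.15.

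The 27 upstream kinases and adaptors had 13 log2 fold changes above 0 and 14 below in T1D against NGT, with a median of -0.01. Map3k20, a stress-responsive kinase, and Rac1, a small GTPase, had the highest mean CPM over the 9 libraries, at 345 ± 81.2 and 273 ± 32.6 CPM in NGT and 347 ± 123 and 287 ± 7.81 CPM in T1D (SD, n = 3). Map3k6, a relative of the oxidant-sensing kinase Map3k5, was at 17.5, 19.0 and 15.8 CPM in NGT, 9.30, 10.9 and 15.01 CPM in T1D, and 52.7, 15.9 and 17.6 CPM in Lira. T1D lay below both other groups, and Lira mouse 1 stood far above the rest. Lira differed from T1D by 1.29 on the log2 scale (SE 0.45, unadjusted edgeR p 0.0186), and by 0.51 without Lira mouse 1 (unadjusted edgeR p 0.0675). Without T1D mouse 1 or 2 the unadjusted edgeR p was 0.0604 or 0.0525.

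The 5 other target kinases had a median of -0.05 in T1D against NGT and -0.03 in Lira against T1D. Mknk2, which phosphorylates the translation factor eIF4E, had the highest mean CPM, at 508 ± 84.9 CPM in NGT, 491 ± 28.2 CPM in T1D and 562 ± 137 CPM in Lira. Mapkapk5 followed at 82.5 ± 18.1, 71.5 ± 17.3 and 70.0 ± 10.4 CPM in the same groups. The groups overlapped for both.

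Of the 18 transcription factors and effectors, 2 had an unadjusted edgeR p under 0.05 in T1D against NGT, where 3.95% of all genes did, and both were lower, where 1.6% were. Ppargc1a, the coactivator that drives mitochondrial genes in muscle and whose protein p38 phosphorylates, was at 70.3, 149.8 and 69.4 CPM in NGT, 19.6, 56.1 and 35.2 CPM in T1D, and 87.9, 75.9 and 31.7 CPM in Lira. Every T1D mouse was below every NGT mouse, and Lira overlapped both, with a log2 fold change in T1D against NGT of -1.38 (SE 0.51, unadjusted edgeR p 0.0250). It was -0.92 without NGT mouse 2, and the unadjusted p was over 0.05 without NGT mouse 2, T1D mouse 1 or T1D mouse 3. Mef2c, a transcription factor of muscle and bone, was at 684, 829 and 838 CPM in NGT, 500, 623 and 506 CPM in T1D, and 532, 799 and 614 CPM in Lira. It separated T1D from NGT in the same way, at -0.53 (SE 0.22, unadjusted edgeR p 0.0418), but the unadjusted p was under 0.05 in only 4 of 9 fits that left out 1 mouse, and not without NGT mouse 2 or 3, T1D mouse 1 or 3, or Lira mouse 3. Mef2d, second to Mef2c in mean CPM over the 9 libraries but not in T1D alone, was at 359 ± 68.7 CPM in NGT, 297 ± 52.1 CPM in T1D and 381 ± 71.3 CPM in Lira.

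Of the 16 other phosphatases 14 were tested, and 0 had an unadjusted p under 0.05 in edgeR in any comparison. Over all genes, 3.95% did in T1D against NGT, 3.33% in Lira against T1D and 0.781% in Lira against NGT. With the muscle covariate, 2 phosphatases did in Lira against T1D, where 769 of all genes did, and 0 in T1D against NGT. Ppm1b and Ppm1a, serine/threonine phosphatases that act on this route, had the highest mean CPM, with Ppm1b at 277 ± 36.7 CPM in NGT, 224 ± 18.7 CPM in T1D and 253 ± 46.1 CPM in Lira. Ppm1a was at 213 ± 42.8, 195 ± 51.0 and 205 ± 45.7 CPM. Ppm1b was lower in T1D than NGT without overlap, at a log2 fold change of -0.31 (SE 0.19).

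Of the 18 genes of the neighbouring JNK and ERK cascades 15 were tested, with a median of -0.17 in T1D against NGT and 0.07 in Lira against T1D. Nlk, a kinase of the same family that acts on Wnt signaling, was at 15.9, 14.7 and 17.2 CPM in NGT, 10.7, 12.3 and 10.7 CPM in T1D, and 12.99, 14.6 and 16.7 CPM in Lira. T1D lay below both other groups without overlap, which themselves overlapped. The log2 fold change was -0.50 (SE 0.17, unadjusted edgeR p 0.0171) against NGT and 0.39 for Lira against T1D (SE 0.17, unadjusted edgeR p 0.0476). With 1 mouse left out, the unadjusted p stayed under 0.05 in 7 of 9 fits against NGT (not without NGT mouse 3 or T1D mouse 3) and in 1 of 9 for Lira against T1D (only without Lira mouse 1).

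Mapk8ip1, a JNK scaffold, was at 7.74, 6.88 and 3.88 CPM in NGT, 7.12, 14.9 and 8.07 CPM in T1D, and 3.50, 6.78 and 3.85 CPM in Lira. Lira lay below T1D without overlap, at -1.09 (SE 0.42, unadjusted edgeR p 0.0292), and NGT overlapped both. It was -0.70 without T1D mouse 2, and the unadjusted p was over 0.05 without T1D mouse 2, Lira mouse 1 or Lira mouse 3. Spag9, another scaffold, had the highest mean CPM of this list, at 352 ± 58.0 CPM in NGT, 291 ± 85.6 CPM in T1D and 350 ± 80.8 CPM in Lira.

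Among 10412 genes of at least 5 CPM, those whose log2(CPM + 1) followed Map2k6 most closely over the 9 libraries were Rrm2b (Pearson's r 0.982), C330018D20Rik (0.964), Zswim9 (0.964), Neurl1a (0.960) and Unc5a (0.955). Their NGT, T1D and Lira means were 43.2, 28.9 and 35.4 CPM for Rrm2b and 31.6, 16 and 24.7 CPM for Unc5a, with T1D lowest in both. The genes with the lowest r were Trip6 (-0.950), Arfip2 (-0.947), Ckb (-0.914), Rps19 (-0.913) and Fat1 (-0.911). Ckb, the brain-type creatine kinase, was at 6.89, 21.2 and 9.39 CPM in NGT, T1D and Lira. In all, 62 genes had an r over 0.9 and 9 an r under -0.9. Of the other genes of the route, Mapkapk3 came closest to Map2k6 at r = 0.890, rank 85 of the 10412, followed by Mapkapk2 at 0.718. These values describe 9 libraries that share group differences and muscle content, and carry no test.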

How the data were processed

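RNA was taken from 1 tibia of each of 3 NGT, 3 T1D and 3 Lira mice and mapped to groups by the sample titles. The authors deposited expected counts, estimated per gene and not normalized (30.2% are not whole numbers), and FPKM, in which the authors corrected for gene length and library size. The submitters' processing notes name genome build mm9, and the aligner and counting tool are not given in the sources used here. The strand setting is not given either, so overlapping antisense reads could not be told apart.

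Expected counts were rounded, and a gene was tested if 3 or more of the 9 libraries held 10 or more counts of it (13960 of 18272). Counts were fitted in R 4.3.3 with edgeR 4.0.16 (TMM, 3 group means over all 9 libraries, quasi-likelihood test, Benjamini-Hochberg adjustment over all tested genes). Differentially expressed genes had an adjusted p under 0.05 and a fold change over 2. CPM are counts scaled by the TMM-adjusted total of tested genes. FPKM served to compare levels between the 10 genes. SE were derived from the F statistic. Permutation tests were exact and two-sided over mice. Nothing says that the mice shared cages or litters, and p-values measure the spread between mice.

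The 10 genes and all lists were chosen with earlier results of these data known. Named were all 10 genes, of each list those with an unadjusted p under 0.05 in T1D against NGT or Lira against T1D and the 2 of highest mean CPM, and the 5 genes with the highest and the 5 with the lowest r to Map2k6. The values of 1 gene that this rule names are not reported here. Same-numbered NGT and T1D mice correlated across genes at r = 0.583, 0.647 and 0.283 in their deviations from the group mean, each over 0.1, and were taken as pairs. T1D and Lira mice (-0.244, 0.615 and 0.271) and NGT and Lira mice (-0.173, 0.727 and 0.0125) were not. Neither the labels nor the study's methods state a pairing. The paired differences and the p-values of the block thus rest on a choice made from these data. Alternatives were DESeq2 1.42.0, limma 3.58.1 on log2(CPM + 1) and log2(FPKM + 1), library size in place of TMM, other filters, only the 2 groups compared, the replicate block, a muscle covariate and leaving out each mouse. The procedure was tested on simulated data. Promoter sequences came from a RefSeq table (GRCm38.p6) and were matched by symbol for all 10 genes.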

Additional observations from a re-analysis of the deposited data

How the results depend on the processing

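No call of a differentially expressed gene was made under any alternative except 1 gene in Lira against T1D with DESeq2 (adjusted p 0.0367). In T1D against NGT the lowest DESeq2 adjusted p was 0.00592, for 1 gene under the fold threshold. The replicate block left the counts of such genes at 0 in the 3 comparisons and Map2k6 at -0.99, 0.60 and -0.39 on the log2 scale (T1D against NGT, Lira against T1D, Lira against NGT), or -0.97, 0.58 and -0.40 with only the 2 groups compared. Map2k6 was picked on the T1D and NGT counts of these libraries, which every alternative reuses, so its kept direction is a description. It ranged from -1.01 to -0.73 in T1D against NGT, from 0.40 to 0.61 in Lira against T1D and from -0.41 to -0.33 in Lira against NGT. Leaving out each mouse gave -1.21 to -0.85, 0.44 to 0.76 and -0.61 to -0.25. Mapkapk3 in T1D against NGT had an unadjusted p of 0.0126 to 0.0401 in the alternatives that kept all mice, and under 0.05 in 6 of 9 fits that left 1 out. It was 0.0617 to 0.0799 without NGT mouse 2, NGT mouse 3 or T1D mouse 1. In Lira against NGT, 1 of 9 such fits of Mapkapk3 was under 0.05. In Lira against T1D, 1 of 9 was for Dusp1 and 1 of 9 for Map2k3. The correlation of Map2k6 with the muscle list was 0.619 without the 2 libraries farthest from the median.

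Of 30 comparisons of a gene, 16 kept their sign in all alternatives. The cause of the reversals was not tested. In T1D against NGT, Map2k4 was 0.0176 with the muscle covariate, and Mapk12 was 0.0236 with library size, 0.0493 with limma on FPKM and 0.10 with the covariate. In Lira against T1D, Map2k4 was -0.0827 and Mapk11 0.14 with the covariate, and Mapk13 was -0.23 with the block, -0.58 with the block and only 2 groups, -0.11 with limma on CPM and -0.0526 on FPKM. In Lira against NGT, Dusp1 was 0.0024 with library size. Leaving out each mouse gave ranges across 0 in T1D against NGT for Mapk12 (-0.24 to 0.0221) and Mapk13 (-0.44 to 2.45). In Lira against T1D it did so for Map2k4 (-0.11 to 0.23), Mapk11 (-0.62 to 0.21), Mapk12 (-0.26 to 0.0466), Mapk13 (-2.07 to 1.36) and Mapk14 (-0.0125 to 0.29). In Lira against NGT it did so for Map2k3 (-0.0661 to 0.32), Mapk11 (-0.0550 to 0.79), Mapk13 (-1.73 to 3.03), Mapk14 (-0.25 to 0.0393), Mapkapk2 (-0.26 to 0.14) and Dusp1 (-0.30 to 0.14). Mapk13 rests on 0 to 211 counts per library, and each group has 3 mice.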
